A study of Homo sapiens with 8 samples.

Results

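A group of 10 Notch pathway genes was followed across all conditions of a data set labelled as factory (nascent) RNA. The data came from IMR90 cells, a human fetal lung fibroblast line. The genes are the receptors NOTCH1, NOTCH2 and NOTCH3, the ligand JAG1, the DNA-binding protein RBPJ and the effectors HES1, HES4, HEY1, HEY2 and HEYL. They were chosen by gene symbol, and all 10 were found among the 28265 genes counted. The cells were low-passage IMR90 in every group. Control cells, labelled young, were untreated with the compound as far as the labels say, and the other groups were treated with ICM (inflachromene, a small molecule that binds the chromatin proteins HMGB1 and HMGB2) for 3 days, with ICM for 6 days, or were labelled MetaICM, a treatment for which no dose, duration or schedule is given. The study used ICM to bring these fibroblasts into a senescence-like arrest. Each of the 4 conditions had 2 libraries. The label "factory RNA" stands for nascent RNA taken from isolated transcription factories, whereas the extraction text attached to the same samples describes poly(A)+ RNA from whole cells, and the counts alone do not say which of these was sequenced. No source states that the 2 libraries of a condition came from separate cultures, so the p-values measure the spread between these libraries, which may be technical.

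Notch receptors are transmembrane proteins that are bound by ligands of the Jagged and Delta-like families on a neighbouring cell. Ligand binding leads to cleavage by ADAM proteases and then by gamma-secretase, which frees the intracellular part of the receptor. This fragment moves to the nucleus, joins RBPJ on DNA together with Mastermind-like coactivators, and turns genes such as the HES and HEY repressors on. Without it, RBPJ is bound by corepressors. In fibroblasts the pathway is known for its links to contractile and matrix gene expression, and in senescent cells for its links to the secretory phenotype.

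The promoters of 3 of these genes are printed because NOTCH1 and HES4 had similar level patterns over the conditions and HES1 a different one. Each line gives the 250 bases before the RefSeq start site on the gene's own strand in GRCh38.p14, and capitals mark TGGGAA, the core of the RBPJ site, searched on both strands. Their positions are chr9:136546049-136546298 on the minus strand for NOTCH1, chr1:1000098-1000347 on the minus strand for HES4 and chr3:194135898-194136147 on the plus strand for HES1.
HES4: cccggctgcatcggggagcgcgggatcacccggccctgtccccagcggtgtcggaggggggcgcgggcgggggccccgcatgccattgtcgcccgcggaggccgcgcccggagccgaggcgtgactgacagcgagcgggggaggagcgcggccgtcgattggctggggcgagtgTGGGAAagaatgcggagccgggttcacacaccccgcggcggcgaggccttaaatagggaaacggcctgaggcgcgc
HES1: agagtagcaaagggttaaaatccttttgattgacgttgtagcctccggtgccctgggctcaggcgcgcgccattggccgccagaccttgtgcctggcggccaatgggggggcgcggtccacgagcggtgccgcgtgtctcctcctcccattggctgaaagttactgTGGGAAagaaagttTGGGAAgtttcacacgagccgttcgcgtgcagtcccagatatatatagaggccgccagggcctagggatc
NOTCH1: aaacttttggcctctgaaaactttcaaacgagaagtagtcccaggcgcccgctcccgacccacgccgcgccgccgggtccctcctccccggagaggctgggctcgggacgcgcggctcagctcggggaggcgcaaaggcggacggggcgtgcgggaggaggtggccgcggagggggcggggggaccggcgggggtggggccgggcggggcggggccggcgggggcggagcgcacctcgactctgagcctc

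RefSeq promoters of 300 bases (250 before and 50 after the start) were found for 9 of the 10 genes, all except HEY1, and RBPJ had 5 of the 13 promoters. TGGGAA was present in the promoters of all 4 effectors with an entry, HES1, HES4, HEY2 and HEYL, and 24.0% of all 35116 RefSeq promoters of this length held it. The longer form GTGGGAA, which contains the core, was also present in all 4, against 6.25% of all promoters. HES1 had the core 84 and 70 bases before its start and HES4 had it 76 bases before its start. The HES4 copy and the more distant HES1 copy, 84 bases before the start, stood in the same 12-base stretch, tgTGGGAAagaa. HEY2 had it 213 and 3 bases before the start and HEYL 178 and 99 bases before, the more distant copy of each on the opposite strand. NOTCH1, NOTCH2, NOTCH3 and JAG1 did not hold these letters in the window, and 1 of the 5 RBPJ promoters did. The E box CACGTG, a site of many basic helix-loop-helix proteins, was in none of the 13 promoters and in 7.26% of all promoters. The N box CACNAG, the letters known as a site of HES proteins, was in HES1, NOTCH1, NOTCH2, NOTCH3 and 1 RBPJ promoter, and in 38.0% of all promoters. Such matches are descriptions of sequence, not evidence of binding.

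Counts summed to between 12095123 and 23166405 read pairs per library, lowest in control replicate 2. The replicates of a condition differed by more than counting noise in each of the 4 conditions, and the control pair had the largest median difference between its libraries (0.231 on the log2 CPM scale, against 0.116 for MetaICM). All 10 fibroblast markers were expressed. Their summed level was 55012 to 61463 CPM (counts per 1000000, with TMM scaling between libraries) in control, 26672 to 28208 CPM after 3 days, 21453 to 21506 CPM after 6 days and 35811 to 38653 CPM in MetaICM. The marker FN1 made the largest part of this sum, with 38142 and 32126 CPM in control and 18292 and 14448 CPM in MetaICM. Of the 10 markers, 1 was called higher and 1 lower in MetaICM than in control. Of the blood markers CD3E had no count in any library, whereas CD68, also known from lysosomes, was at 4.18 and 5.36 CPM in control, 15.8 to 20.7 CPM in the ICM libraries and 12.8 to 13.2 CPM in MetaICM, and 1 blood marker against control was called higher after 3 and after 6 days and 2 in MetaICM. The epithelial list summed to 67.3 to 103 CPM in control, 35.1 to 37.2 CPM in the ICM libraries and 66.6 to 69.8 CPM in MetaICM, mostly from KRT18, while EPCAM stayed at or below 0.546 CPM, and 2 of its 3 markers tested were called lower after 3 and after 6 days. The endothelial genes PECAM1 and CDH5 stayed at or below 0.447 CPM and TIE1 at or below 0.774 CPM, although TEK of the same list was at 123 to 232 CPM. VWF had 2.86 and 2.13 CPM in control, 3.91 to 4.89 CPM in the ICM libraries and 1.79 and 1.44 CPM in MetaICM. KDR was also lowest in MetaICM (0.645 and 0.612 CPM). Of the 3 endothelial markers tested, 1 was called higher than control after 6 days, and 0 after 3 days or in MetaICM. In MetaICM 2 were called lower than after either ICM treatment, and 1 higher than after 3 days. The part of these markers in the results was not tested. In bulk RNA of this kind, fewer cells expressing a gene and less RNA per cell cannot be told apart.

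Per kilobase of exon, the mean level over the 8 libraries was highest for NOTCH2 (39.4 CPM per kb), followed by RBPJ (25.1), JAG1 (16.0), NOTCH1 (6.93), NOTCH3 (4.59) and HES4 (3.47 CPM per kb). The other effectors were far lower, at 0.263 CPM per kb for HES1, 0.156 for HEY1, 0.0131 for HEYL and 0.00256 for HEY2. This order pools conditions that differ. In the 6-day libraries NOTCH1 (3.05 and 3.20 CPM per kb) was below NOTCH3 (4.58 and 3.53 CPM per kb). In control cells, neighbours whose difference was smaller than the sum of their SDs (n = 2) included RBPJ and JAG1, at 26.9 ± 4.03 and 20.1 ± 3.37 CPM per kb, and NOTCH3 and HES4, at 5.24 ± 0.392 and 4.69 ± 0.342 CPM per kb. HEY2 and HEYL never exceeded 2 counts in a library and did not pass the filter on low counts in any comparison.

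**Figure D1:**
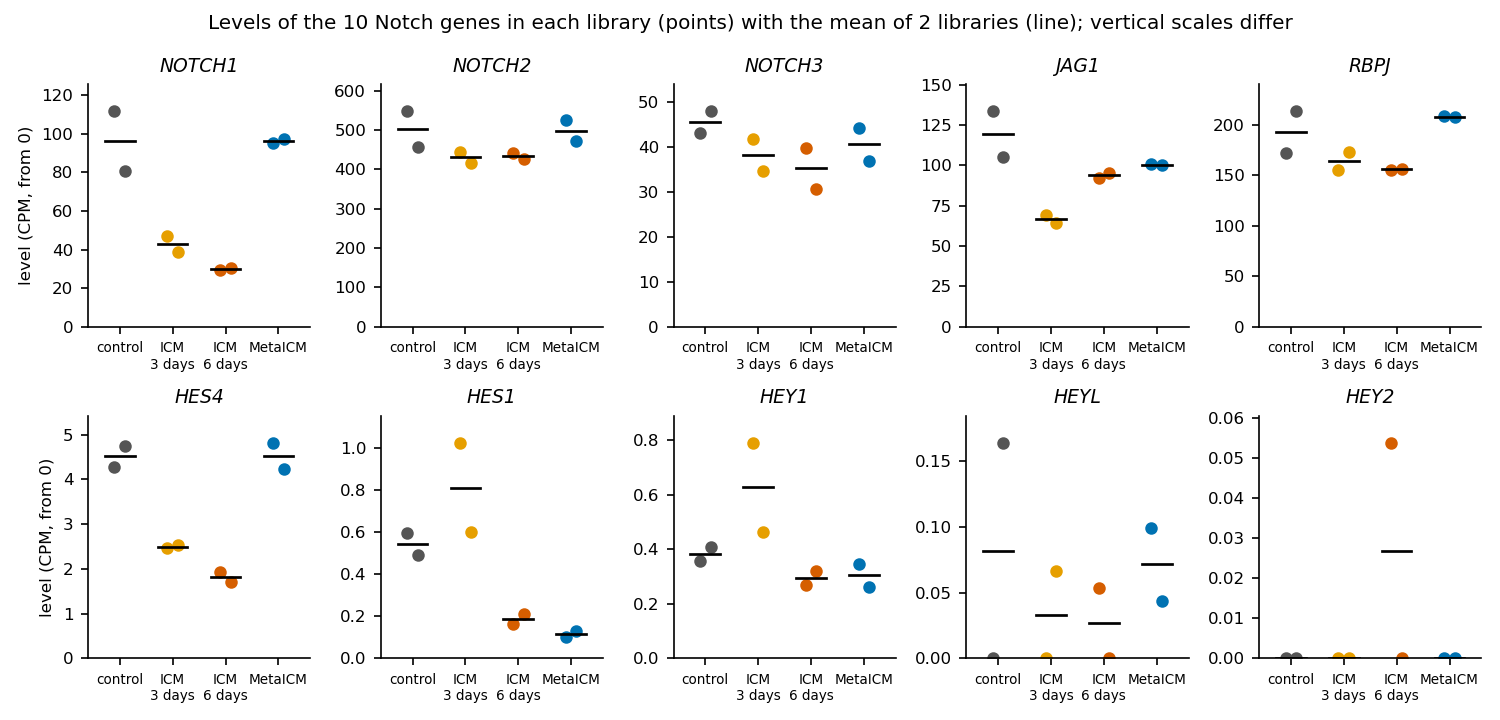
Level of each of the 10 genes in CPM (vertical axis from 0, a different scale in each panel) in control, 3-day ICM, 6-day ICM and MetaICM libraries; points are the 2 libraries of a condition and the line is their mean. NOTCH1 and HES4 are low in both ICM groups and near the control level in MetaICM, JAG1 is lowest after 3 days, and HEY2 has a single count in 1 of 8 libraries.

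Genes were called as changed in edgeR's quasi-likelihood test at a Benjamini-Hochberg adjusted p under 0.05 and an absolute log2 fold change (log2FC) over 0.6. After 3 days of ICM, 3 of the 6 Notch genes tested were called against control, all of them lower (NOTCH1, JAG1 and HES4), where 22.0% of all genes tested were called, 8.85% higher and 13.2% lower. After 6 days 2 of 6 were called, both lower (NOTCH1 and HES4), where 30.5% of all genes were called, 13.3% higher and 17.2% lower. Between 6 and 3 days 1 of 7 was called, HES1, which was lower after 6 days, and 8.07% of all genes were called, 3.53% higher and 4.54% lower. In MetaICM 0 of 6 were called against control, where 16.4% of all genes were, 7.41% higher and 8.99% lower. No gene of these 6 had an unadjusted p under 0.05 in that edgeR fit, and DESeq2 also called 0. MetaICM was called different from 6-day ICM for 2 of 6 genes, NOTCH1 and HES4, both higher, beside 27.7% of all genes called, 15.7% higher and 12.0% lower. From 3-day ICM it was called different for 3 of 8, NOTCH1 and HES4 higher and HES1 lower, beside 23.4% of all genes called, 13.1% higher and 10.3% lower. With 6 to 8 genes, these shares say little about the group as a whole, and HES1 and HEY1 passed the filter on low counts only through the 3-day libraries, where their counts were highest. The median log2FC of the genes tested was -0.55 after 3 days and -0.37 after 6 days, against 0.01 and 0.00 over all genes.

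**Figure D2:**
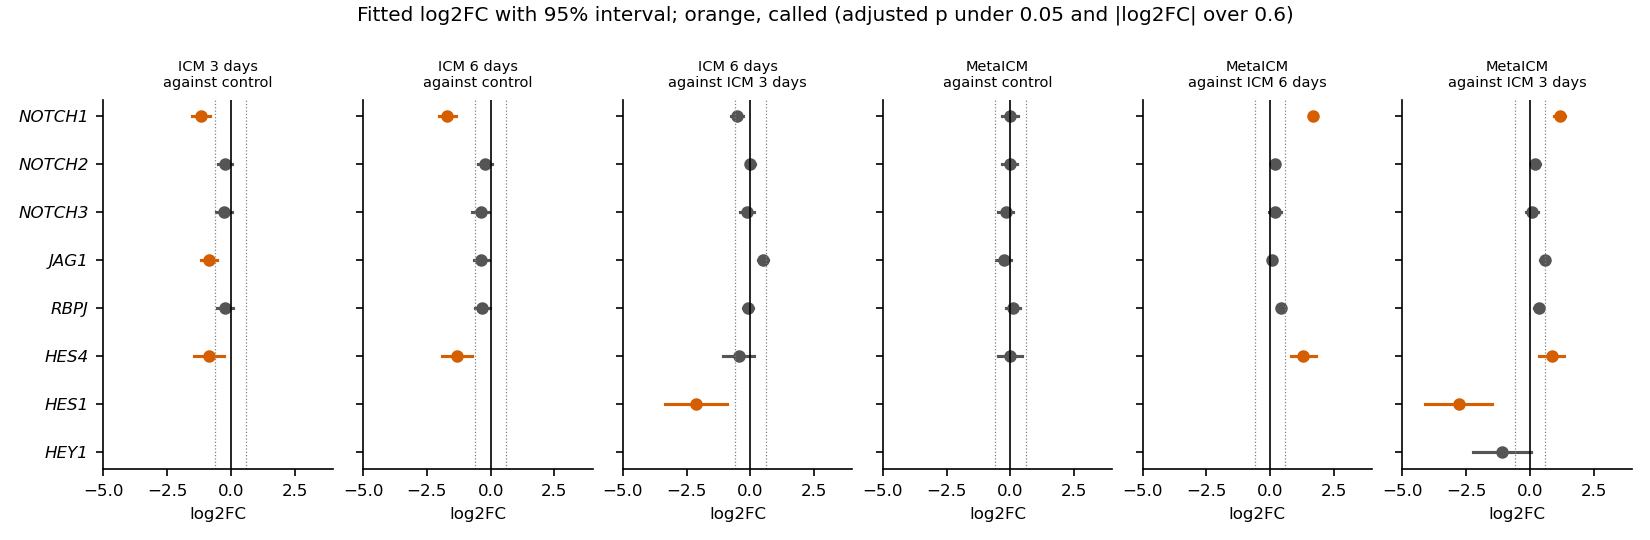
Fitted log2FC (horizontal axis) with its 95% interval for the 8 Notch genes that entered a test, in 6 comparisons; orange marks genes called, dotted lines mark 0.6 in each direction, and a gene without a point was not tested. NOTCH1 and HES4 lie left of 0 in both ICM comparisons with control, near 0 for MetaICM against control and right of 0 for MetaICM against either ICM group.

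NOTCH1 lost the most among the receptors. It encodes the founding mammalian receptor and lies on chromosome 9 (hg19, 139388885 to 139440500, minus strand, 9568 exon bases). It stood at 112 and 80.6 CPM in the control libraries, 47.1 and 38.6 CPM after 3 days, 29.2 and 30.6 CPM after 6 days and 95.3 and 97.6 CPM in MetaICM. The ICM libraries were thus all below the control and MetaICM libraries, and the 6-day libraries were all below the 3-day ones. Against control the gene fell by 1.17 on the log2 scale after 3 days (SE 0.166, adjusted p = 0.000236, edgeR), which leaves 44.4% of the control level. After 6 days it fell by 1.70 (SE 0.154, adjusted p = 1.44e-05), which leaves 30.9%. The further difference between 6 and 3 days was -0.53 (SE 0.114, adjusted p = 0.00260) and did not reach the size required for a call. Without 3-day replicate 2 that difference was -0.65 and called. MetaICM was 3.21-fold above 6-day ICM (log2FC 1.68, 95% interval 1.52 to 1.85, adjusted p = 1.45e-13) and 2.24-fold above 3-day ICM (log2FC 1.16, 95% interval 0.95 to 1.37). From control it was at a log2FC of -0.01, with a 95% interval from -0.33 to 0.30.

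NOTCH2, the most abundant receptor here, was lower in both ICM groups like NOTCH1, but by far less. The Pearson's r of log2 CPM of these 2 receptors over the 8 libraries was 0.835, given without p. It had 547 and 457 CPM in control, 444 and 417 CPM after 3 days, 441 and 426 CPM after 6 days and 526 and 471 CPM in MetaICM. The ICM libraries lay just below the control ones, and control and MetaICM overlapped. The log2FC was -0.23 after 3 days (95% interval -0.51 to 0.05) and -0.22 after 6 days (95% interval -0.48 to 0.04), neither called. MetaICM was 0.20 above 6-day ICM on the log2 scale (95% interval 0.04 to 0.36), a difference under the size for a call. Of the 11825 exon bases counted for NOTCH2, 981 are also assigned to NOTCH2NLC or NOTCH2NLR, near-identical partial copies on the same strand, so its level is uncertain to the extent that reads from the copies were placed there or its own reads went elsewhere.

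NOTCH3, a receptor best known from vascular smooth muscle and pericytes, was the lowest of the 3 receptors in control and MetaICM and varied little between conditions. It had 43.0 and 47.8 CPM in control, 41.7 and 34.6 CPM after 3 days, 39.7 and 30.6 CPM after 6 days and 44.3 and 36.9 CPM in MetaICM. It was called in none of the 6 comparisons. Its largest difference was -0.38 after 6 days of ICM (95% interval -0.71 to -0.05, adjusted p = 0.0631).

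The make-up of the receptor transcripts therefore differed between conditions. Summed per kilobase over NOTCH1, NOTCH2 and NOTCH3, NOTCH1 held 18.5% and 16.0% in control, 10.4% and 9.32% after 3 days, 6.80% and 7.50% after 6 days and 16.7% and 18.8% in MetaICM. NOTCH2 held 73.4% to 84.2% in all libraries. NOTCH3 held 7.83% to 10.5%, and its control libraries spanned those of the other conditions or overlapped them. These shares are a description of 2 libraries a condition, for which an exact permutation test could not reach significance.

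**Figure D3:**
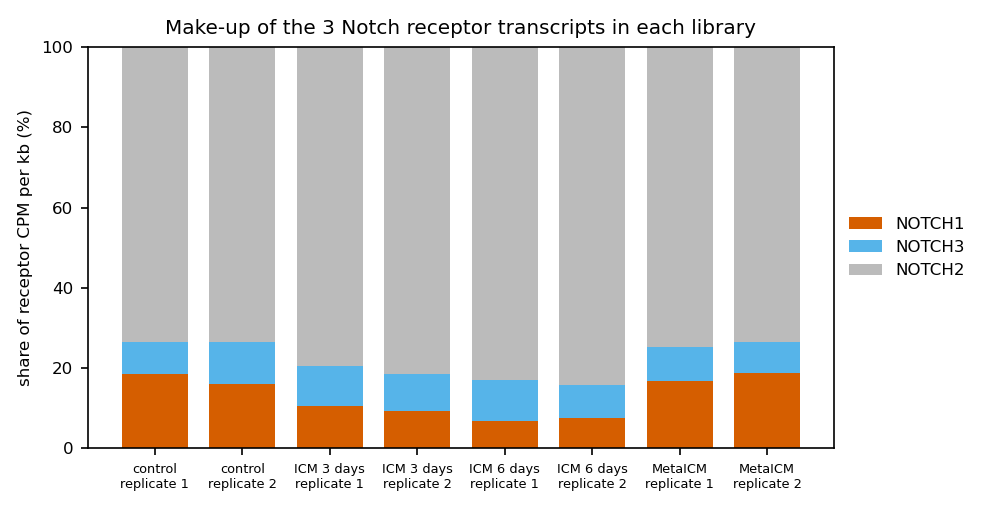
Share (%) of each receptor in the sum of NOTCH1, NOTCH2 and NOTCH3 levels per kilobase of exon, 1 bar per library. The NOTCH1 share is 16.0% to 18.8% in the control and MetaICM libraries and 6.80% to 10.4% in the ICM libraries.

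JAG1, the Jagged-family ligand, fell and then partly regained its level. The gene lies on chromosome 20 (hg19, 10618332 to 10654647, minus strand). Its levels were 133 and 105 CPM in control, 68.9 and 64.4 CPM after 3 days, 92.1 and 95.4 CPM after 6 days and 101 and 99.9 CPM in MetaICM. The 3-day libraries were the lowest pair, and the control libraries were both above all others. After 3 days the gene fell by 0.85 on the log2 scale (SE 0.139, adjusted p = 0.000747), to 55.7% of control. After 6 days the difference from control was -0.36 (SE 0.127, adjusted p = 0.0438), short of a call. The 6-day level exceeded the 3-day level by 0.48 (SE 0.0923, adjusted p = 0.000983), and MetaICM exceeded it by 0.58 (SE 0.0839, adjusted p = 6.44e-05), both under the size for a call. Without 3-day replicate 1 the latter was 0.61 and called. Control and MetaICM differed by -0.27 (95% interval -0.54 to 0.01). Per kilobase, NOTCH1 stood at 0.520 and 0.477 of JAG1 in control, 0.424 and 0.372 after 3 days, 0.197 and 0.199 after 6 days and 0.587 and 0.606 in MetaICM, so that the receptor and the ligand parted most after 6 days.

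RBPJ, the protein through which the mammalian Notch receptors reach DNA, had small differences. Its levels were 172 and 213 CPM in control, 155 and 173 CPM after 3 days, 155 and 156 CPM after 6 days and 208 and 207 CPM in MetaICM. It was not called in any comparison. The log2FC from control was -0.24 after 3 days (95% interval -0.55 to 0.07), -0.32 after 6 days (95% interval -0.60 to -0.04) and 0.09 in MetaICM (95% interval -0.18 to 0.37). MetaICM lay 0.41 above 6-day ICM (SE 0.0700, adjusted p = 4.06e-05) and 0.34 above 3-day ICM (SE 0.0867, adjusted p = 0.00635).

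HES4 was the only effector with a level that could be tested in every comparison. It is a transcriptional repressor of the Hairy and Enhancer of split family, on chromosome 1 (hg19, 934344 to 935477, minus strand), whose promoter is printed above. The libraries held 72 and 58 counts in control, 53 and 38 after 3 days, 36 and 32 after 6 days and 97 and 97 in MetaICM. In CPM this is 4.29 and 4.75, then 2.46 and 2.53, then 1.94 and 1.70, and 4.81 and 4.24 in MetaICM. Control and MetaICM overlapped, and all ICM libraries lay below them. HES4 fell by 1.32 on the log2 scale after 6 days (SE 0.263, adjusted p = 0.00263), to 40.1% of control. After 3 days it fell by 0.86 (SE 0.271, adjusted p = 0.0323). That call was not made by DESeq2 (adjusted p = 0.103), nor by edgeR without control replicate 2 (log2FC -0.80, adjusted p = 0.0727), without 3-day replicate 1 (log2FC -0.84, adjusted p = 0.171) or without 3-day replicate 2 (log2FC -0.87, adjusted p = 0.105). MetaICM exceeded 6-day ICM by 1.31 (SE 0.232, adjusted p = 6.98e-05) and 3-day ICM by 0.86 (SE 0.228, adjusted p = 0.00757). The latter was 0.76 with an adjusted p of 0.0669 without MetaICM replicate 1. From control MetaICM was at -0.01 (95% interval -0.49 to 0.47).

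HES1, the effector most often used to read out Notch signalling, was near the limit of these libraries. It had 10 and 6 counts in control, 22 and 9 after 3 days, 3 and 4 after 6 days and 2 and 3 in MetaICM. Unlike HES4 it was not lower after 3 days, and it was low in MetaICM as well as after 6 days. Summed over the 2 libraries and corrected for depth, the 6-day level was 4.53-fold below the 3-day level (95% exact counting interval 1.96 to 12.2) and 2.95-fold below control (1.15 to 8.47). MetaICM was 4.75-fold below control (1.66 to 16.6) and 7.30-fold below 3-day ICM (2.81 to 24.0). For 3-day ICM against control the ratio was 1.54 (0.816 to 3.01). These intervals cover counting error only. The fitted log2FC was -2.13 for 6 against 3 days (SE 0.584, adjusted p = 0.0146). Its adjusted p was 0.174 without 3-day replicate 1 (log2FC -1.66), 0.153 without 6-day replicate 1 (log2FC -1.93) and 0.0934 without 6-day replicate 2 (log2FC -2.33), and DESeq2 gave none. For MetaICM against 3 days the log2FC was -2.78 (SE 0.612, adjusted p = 0.00211), and without 3-day replicate 1 the gene no longer passed the filter. HES1 did not pass the filter on low counts in the comparisons with control. In the fit of all 8 libraries, where it did, it was called lower in MetaICM than in control (log2FC -2.19, adjusted p = 0.0232), and in the fit of every gene with a count it was not (log2FC -2.16, adjusted p = 0.0856).

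The Hairy/enhancer-of-split with YRPW motif genes HEY1, HEY2 and HEYL were close to silent in these counts. HEY1, the most abundant of them, had 6 and 5 counts in control, 17 and 7 after 3 days, 5 and 6 after 6 days and 7 and 6 in MetaICM, and its 3-day libraries were the highest pair. The 6-day to 3-day ratio of its summed level was 0.448 (95% exact counting interval 0.198 to 0.950), and the only comparison in which it passed the filter on low counts with all 4 libraries, MetaICM against 3-day ICM, gave -1.09 (95% interval -2.22 to 0.05, adjusted p = 0.113). HEYL had 0 and 2 counts in control, 0 and 1 after 3 days, 1 and 0 after 6 days and 2 and 1 in MetaICM. HEY2 had 1 count in 6-day replicate 1 and 0 in the other 7 libraries. A count of 0 allows a level of up to 0.131 to 0.246 CPM, depending on the library, so differences in HEY2 and HEYL were not detectable at this depth.

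Beyond these 10 genes, 62 further genes of the pathway were examined by role. Against control, 9 of 51 tested were called after 3 days (4 higher, 5 lower), 11 of 53 after 6 days (5 higher, 6 lower) and 10 of 53 in MetaICM (5 higher, 5 lower). Between 6 and 3 days 3 of 51 were called (1 higher, 2 lower). MetaICM differed from 6-day ICM in 12 of 53 (8 higher, 4 lower) and from 3-day ICM in 9 of 53 (6 higher, 3 lower). The share called was 17.6%, 20.8%, 18.9%, 5.88%, 22.6% and 17.0% in that order. Each is below the share of all genes called except for MetaICM against control (16.4% of all genes). The median log2FC of the list lay between -0.06 and 0.12 in all 6.

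Among the other ligands, DLL4 had the widest swing. This Delta-like ligand, known from endothelial sprouting, had 9.35 and 6.72 CPM in control, 2.28 and 1.20 CPM after 3 days, 4.74 and 5.10 CPM after 6 days and 19.3 and 19.6 CPM in MetaICM. The 4 conditions did not overlap, and MetaICM was the highest. It was called in every comparison. It fell by 2.18 after 3 days (SE 0.317, adjusted p = 0.000287), was 1.44 higher after 6 than after 3 days (SE 0.279, adjusted p = 0.00113), and was 1.25 above control in MetaICM (SE 0.175, adjusted p = 0.00122) and 1.98 above 6-day ICM (SE 0.135, adjusted p = 7.59e-11). The 6-day difference from control (-0.73, adjusted p = 0.0217) had an adjusted p of 0.0534 in DESeq2, 0.111 without control replicate 1 (log2FC -0.48), 0.138 without 6-day replicate 1 (log2FC -0.67) and 0.0819 without 6-day replicate 2 (log2FC -0.78). Per kilobase JAG1 exceeded DLL4 8.23-fold and 9.02-fold in the control libraries, 17.5-fold and 31.0-fold after 3 days, 11.2-fold and 10.8-fold after 6 days and 3.01-fold and 2.93-fold in MetaICM. JAG1 thus remained the more abundant of the 2 ligands in every library. DLK2, a non-canonical ligand, was called lower after 6 days (-0.89, adjusted p = 0.0252). That call was not made by DESeq2 (adjusted p = 0.0884), nor without control replicate 2 (log2FC -0.70, adjusted p = 0.0709), without 6-day replicate 1 (log2FC -0.79, adjusted p = 0.169) or without 6-day replicate 2 (log2FC -0.99, adjusted p = 0.0830). NOTCH4, JAG2 and DLL1 had means of 2.16 CPM or less in all conditions.

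Of the receptor-modifying enzymes, LFNG changed most. Lunatic fringe adds sugars to Notch receptors and shifts their preference between Delta-like and Jagged ligands. It had 3.99 and 1.80 CPM in control, 1.26 and 0.399 CPM after 3 days, 0.215 and 0.372 CPM after 6 days and 2.88 and 2.49 CPM in MetaICM, with all ICM libraries below all others. It fell by 3.31 after 6 days (SE 0.518, adjusted p = 0.000593) and by 1.76 after 3 days (SE 0.494, adjusted p = 0.0190). The 6-day levels were near that of 3 counts, which is 0.162 and 0.159 CPM in these libraries. Between 6 and 3 days LFNG did not pass the filter on low counts. It passed only through the control or MetaICM libraries, where it was higher. The 3-day call was lost without control replicate 1 (log2FC -1.05, adjusted p = 0.142) and without 3-day replicate 2 (log2FC -1.24, adjusted p = 0.0819). MetaICM exceeded 6-day ICM by 3.16 (SE 0.391, adjusted p = 7.38e-07) and 3-day ICM by 1.59 (SE 0.380, adjusted p = 0.00375). The latter was 2.70 without 3-day replicate 1 and 1.10 without 3-day replicate 2. The falls from control also moved with single libraries, to a log2FC of -2.87 after 3 days without 3-day replicate 1 and -2.61 after 6 days without control replicate 1. RFNG, a second fringe enzyme, was called higher in MetaICM against control (0.70) and against 6-day ICM (0.68, SE 0.0833). The difference from control was 0.45 without control replicate 2, and had an adjusted p of 0.0810 without MetaICM replicate 2 (log2FC 0.67).

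All 9 receptor processing enzymes were tested. Against control 1 was called after 3 days, 2 after 6 days and 1 in MetaICM, all higher. Of all genes 22.0%, 30.5% and 16.4% were called there. Between 6 and 3 days 0 were called, beside 8.07% of all genes. In MetaICM 1 was higher and 1 lower than after 6 days, beside 27.7% of all genes. Against 3 days 1 was higher and 1 lower, beside 23.4% of all genes. PSENEN and APH1B, small subunits of gamma-secretase, were called higher after 6 days (0.79, SE 0.156, adjusted p = 0.00255, and 0.77, SE 0.137, adjusted p = 0.00125). PSENEN was also called after 3 days (0.72), where without 3-day replicate 1 it had an adjusted p of 0.152 (log2FC 0.60). APH1A, another gamma-secretase subunit, was called higher in MetaICM against control (0.75, adjusted p = 0.0220), but not without control replicate 2 (log2FC 0.44) or MetaICM replicate 2 (log2FC 0.73, adjusted p = 0.0826). Between MetaICM and the ICM groups, FURIN, which cleaves the receptor precursor, was higher than after 6 days (0.73, SE 0.102, adjusted p = 3.91e-06), but 0.55 without 6-day replicate 2. ADAM10, a protease of the ligand-dependent cleavage, was higher than after 3 days (0.71, SE 0.0890, adjusted p = 1.81e-05). ADAM17, a related protease, was lower than after 6 days (-0.69, SE 0.0748) and after 3 days (-0.66, SE 0.0877), and 1242 of its exon bases are shared with IAH1 on the other strand.

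Among 14 ubiquitin ligases and trafficking regulators, MIB2, a ligase that acts on ligands, had mean levels of 39.4 ± 12.4 CPM in control, 69.1 ± 10.2 CPM after 3 days, 61.9 ± 3.59 CPM after 6 days and 67.0 ± 1.12 CPM in MetaICM (SD, n = 2). It was called higher than control in all 3 (0.80, 0.63 and 0.74). The control libraries set the size, since without control replicate 2 the differences were 0.50, 0.36 and 0.47, none over 0.6. Without 3-day replicate 1 the first was 0.64 with an adjusted p of 0.0708, and without 6-day replicate 1 the second was 0.58 with an adjusted p of 0.0744. DTX4, of the Deltex family, was called higher in MetaICM against control (1.06, SE 0.123, adjusted p = 0.000451), 6-day ICM (0.69) and 3-day ICM (0.78). AAK1, an endocytic kinase, was called lower in MetaICM against control (-0.85, SE 0.138, adjusted p = 0.00238).

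The coactivators moved in different directions in the ICM groups. All 8 were tested, and 1 was called higher and 1 lower than control after 3 days, and likewise after 6 days. Of all genes 8.85% were called higher and 13.2% lower after 3 days, and 13.3% and 17.2% after 6 days. In MetaICM 0 were called higher than control and 3 lower, beside 7.41% and 8.99% of all genes. With 8 genes, these counts say little about the role as a whole. MAML3, a Mastermind-like protein, had 12.5 and 10.8 CPM in control, 18.2 and 22.5 CPM after 3 days, 24.2 and 22.3 CPM after 6 days and 10.1 in each MetaICM library. It was higher after 6 days (0.98, SE 0.152, adjusted p = 0.000563) and after 3 days (0.79, adjusted p = 0.00663), the latter with an adjusted p of 0.0793 without 3-day replicate 2 (log2FC 0.64). MetaICM was 1.21 below 6-day ICM (SE 0.112, adjusted p = 1.02e-08). KAT2B, an acetyltransferase, had its lowest level after 3 days, with 9.64 and 10.1 CPM in control, 4.42 and 5.05 CPM after 3 days, 6.62 and 7.54 CPM after 6 days and 12.4 and 12.1 CPM in MetaICM. It fell by 1.07 after 3 days (SE 0.219, adjusted p = 0.00329), and MetaICM was 1.37 above that level (SE 0.168, adjusted p = 1.43e-05). MAML2 was called lower after 6 days (-0.62) and in MetaICM (-0.74). The first was -0.53 without control replicate 2, and the second had an adjusted p of 0.0666 without MetaICM replicate 2 (log2FC -0.63).

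Of 10 corepressors, 2 were called lower than control after 3 days, 2 after 6 days and 1 in MetaICM. Of all genes 13.2%, 17.2% and 8.99% were. In these comparisons 0 were called higher, where 8.85%, 13.3% and 7.41% of all genes were. In MetaICM 1 was called higher than after 6 days. With 10 genes, these counts say little about the role as a whole. TLE4, of the Groucho family, was called lower after 3 days (-0.64, adjusted p = 0.00296), but had an adjusted p of 0.0796 without 3-day replicate 1 (log2FC -0.55). TLE2 was near 1 CPM and called lower after 3 days (-1.43, adjusted p = 0.0386), a call not made by DESeq2 (adjusted p = 0.172), nor without control replicate 1 (log2FC -1.05, adjusted p = 0.278), 3-day replicate 1 (log2FC -1.78, adjusted p = 0.133) or 3-day replicate 2 (log2FC -1.19, adjusted p = 0.214).

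The relatives of the HES genes added one clear pattern, that of BHLHE40, a repressor known from circadian and hypoxia responses. It had 17.9 and 13.0 CPM in control, 48.0 and 45.0 CPM after 3 days, 25.7 and 24.6 CPM after 6 days and 15.7 and 16.0 CPM in MetaICM. It rose by 1.57 after 3 days (SE 0.168, adjusted p = 2.35e-05), was 0.89 lower after 6 than after 3 days (SE 0.107, adjusted p = 8.10e-06) and was 1.56 lower in MetaICM than after 3 days (SE 0.102, adjusted p = 1.83e-08). The 6-day difference from control was 0.68 (adjusted p = 0.00773). It was 0.49 without control replicate 2 and had an adjusted p of 0.0592 without 6-day replicate 1 (log2FC 0.66). HES6, a relative that counteracts HES1, was called higher in MetaICM than after 6 days (1.28, SE 0.251, adjusted p = 0.000207) and than after 3 days (0.76, adjusted p = 0.0267). The latter call was not made by DESeq2 (adjusted p = 0.106), nor without 3-day replicate 2 (log2FC 0.52, adjusted p = 0.101) or MetaICM replicate 2 (log2FC 0.65, adjusted p = 0.165). BHLHE41 was called lower in MetaICM than after 6 days (-0.81, adjusted p = 0.0447), a call not made by DESeq2 (adjusted p = 0.194) nor without 6-day replicate 2 (log2FC -0.41, adjusted p = 0.476) or MetaICM replicate 2 (log2FC -0.63, adjusted p = 0.251). HELT had no count in any library. NRARP, a feedback inhibitor and Notch target, had 1 count in control, 8 after 3 days, 4 after 6 days and 4 in MetaICM over both libraries.

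**Figure D4:**
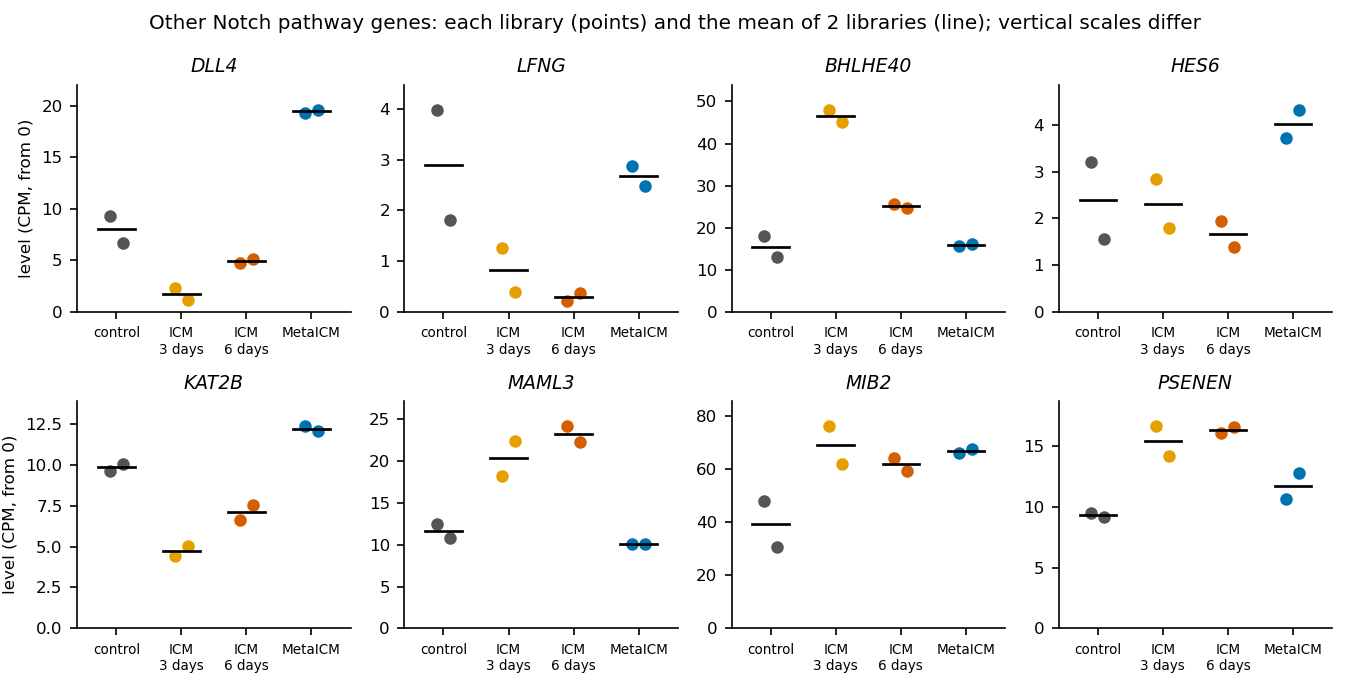
Level in CPM (vertical axis from 0, a different scale in each panel) of 8 other Notch pathway genes in control, 3-day ICM, 6-day ICM and MetaICM libraries, with the 2 libraries as points and their mean as a line. DLL4 is lowest after 3 days and highest in MetaICM at 19.3 and 19.6 CPM, LFNG is lowest after 6 days, and BHLHE40 peaks after 3 days at 48.0 and 45.0 CPM.

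The summed levels of the smooth muscle and epithelial lists, and in part of the fibroblast list, moved along with NOTCH1, HES4 and LFNG. The fibroblast sum in MetaICM was below control, at 35811 to 38653 against 55012 to 61463 CPM. The blood list did not follow them, with 4.92 to 6.55 CPM in control and higher sums in all other groups. The endothelial genes did not move together, as given above. The 5 smooth muscle or contractile markers summed to 940 to 1166 CPM in control, 160 to 180 CPM after 3 days, 134 to 154 CPM after 6 days and 818 to 911 CPM in MetaICM. All 5 were called lower than control after 3 days and after 6 days, 2 of 5 were lower in MetaICM, and 4 of 5 were higher in MetaICM than after either ICM treatment. Of the 10 fibroblast markers, 8 were called lower after 3 days and 7 after 6 days, and 8 were called higher in MetaICM than after 6 days. Against control, 1 was called higher and 1 lower in MetaICM. The part that a change in the cells' contractile or fibroblast state has in the Notch gene levels was not tested.

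The genes most like the most abundant member of a role were sought over the 8 libraries among 14109 genes with at least 10 counts in each. For HES4 these were PDGFRA (Pearson's r of log2 CPM 0.996), which encodes a platelet-derived growth factor receptor and is itself one of the fibroblast markers, ARHGEF39 (0.992), a guanine nucleotide exchange factor, and SOX11 (0.990), a transcription factor. For JAG1 they were NOP56 (0.993), a nucleolar protein of box C/D ribonucleoproteins, GART (0.989), an enzyme of purine synthesis, and FBLN5 (0.984), a matrix protein. For NOTCH2 they were TTLL12 (0.975), ASNS (0.966), the asparagine synthetase, and PDIK1L (0.961). The 8 libraries fall into 4 conditions of 2, so these values describe likeness over conditions more than over samples, and they carry no p.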

How the data were processed

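The deposited files hold raw counts of read pairs per gene over exons, made by the authors with STAR 2.6.0c and, per the file headers, featureCounts 1.6.3 with an hg19 (GRCh37) RefSeq annotation. Primary alignments of pairs with both ends on one chromosome were counted, without regard to strand. The study's own tests used intronic counts, not analysed here. Groups came from the sample titles. Counts were fitted per pair of conditions (2 libraries each) with edgeR 4.0.16: TMM scaling, filterByExpr with a count minimum of 10, quasi-likelihood test and Benjamini-Hochberg adjustment over all genes tested, with a call at adjusted p under 0.05 and absolute log2FC over 0.6. SE is the log2FC divided by the root of F. CPM values use TMM over all 8 libraries. For genes of few counts, ratios of summed counts have exact binomial 95% intervals, and a count of 0 is read as up to 3 counts.

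The members and gene lists were chosen with earlier results of these data known, so no list is independent evidence. Named were all 10 members and, per role of the 62-gene list, up to 3 genes called with the largest change, plus genes without a count. The values of 1 gene of that list are not reported here, although it stays in the counts. NRARP, NOTCH4, JAG2 and DLL1 were named after their values were seen, as were FURIN, ADAM10 and ADAM17. So were the markers CD3E, CD68, KRT18, EPCAM, PECAM1, CDH5, TEK, VWF, KDR and TIE1. Alternatives were DESeq2 1.42.0, other scalings and filters, all 8 libraries in one fit, a replicate block, thinning to the smallest total, adjusted p under 0.01 and each library left out. With 1 library left in a condition, it was assumed to vary like the other condition. The fits were tested on simulated data. Totals of 12095123 to 23166405 counts per library limit mostly the genes of few counts, as counting error. Thinning to the smallest total also moved BHLHE41 for MetaICM against 6 days from -0.81 to -0.40. KAT2B between 6 and 3 days then no longer had an adjusted p under 0.05.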

Additional observations from a re-analysis of the deposited data

Results flagged for a closer look

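The effect of ICM differed between the 3-day and the 6-day time point, by the edgeR test of 6 against 3 days (adjusted p under 0.05, any size), for 9 of the genes named, of which HES1, MAML2, KAT2B and FURIN passed or missed it depending on the library left out or the tool. The log2FC of 6 against 3 days was -0.53 for NOTCH1, -2.13 for HES1, -0.89 for BHLHE40, -0.54 for FURIN and -0.35 for MAML2, all lower after 6 days. It was 0.48 for JAG1, 1.44 for DLL4, 0.46 for ADAM10 and 0.58 for KAT2B, all higher after 6 days. HES1 (SE 0.584) rests on 7 counts after 6 days and 31 after 3 days, and it passed the filter on low counts only through the 3-day libraries, where it is highest. Its adjusted p was 0.174 without 3-day replicate 1, 0.153 without 6-day replicate 1 and 0.0934 without 6-day replicate 2, and DESeq2 gave none. MAML2 had an adjusted p of 0.0349. It was -0.14 without 3-day replicate 2 (adjusted p = 0.346), its adjusted p was 0.132 and 0.107 without 6-day replicate 1 and 2, and DESeq2 gave 0.0604 and all 8 libraries in one fit 0.0882. KAT2B had an adjusted p of 0.0467. DESeq2 gave 0.149, library totals 0.0605 and thinning 0.147, and leaving out a library gave 0.145 without 3-day replicate 1, 0.0907 without 6-day replicate 1 and 0.307 without 6-day replicate 2. FURIN had an adjusted p of 0.153 without 6-day replicate 2 (log2FC -0.37).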

How the results depend on the processing

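Among the values of the members tested, under other settings that gave an adjusted p, 330 kept their direction and their side of the threshold. Of the rest, 10 changed direction and 3 lost their call. The setting of adjusted p under 0.01 uses the main fit, so direction could not change there. Settings in which a filter left a gene out or the tool gave no adjusted p, as for HES1, are not in these counts. Of the other pathway values given here, 431 kept both and 23 lost their call. With a library left out, 14 member values changed direction. Further values of members and pathway genes then moved across the threshold, as given above for single genes. The count of members called between 6 and 3 days was 0 under DESeq2 (which gave HES1 no adjusted p), at a minimum of 10 counts in every library, at adjusted p under 0.01 and after thinning (the filters left HES1 out), and 0 to 2 with a library left out. MetaICM against control had 1 member called with all 8 libraries in one fit, HES1. Pathway genes called for MetaICM against control numbered 6 at adjusted p under 0.01 and 4 to 11 with a library left out (5 without control replicate 2, 4 without MetaICM replicate 2). They ranged from 3 to 6 between 6 and 3 days (6 without 3-day replicate 2) and from 8 to 15 for MetaICM against 3 days (15 without 3-day replicate 1).

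Values near 0 changed sign. NOTCH2 between 6 and 3 days was -0.028 with library totals and -0.0012 at 10 counts in every library. For MetaICM against control, library totals gave 0.016 for NOTCH1, 0.0011 for NOTCH2 and 0.016 for HES4, and every gene with a count gave 0.013, 0.0015 and 0.018. HES4 was 0.019 after thinning. With a library left out, values between 6 and 3 days ranged from -0.034 to 0.033 for NOTCH2, -0.31 to 0.043 for NOTCH3 and -0.18 to 0.0052 for RBPJ. For MetaICM against control they ranged from -0.22 to 0.24 for NOTCH1, -0.14 to 0.11 for NOTCH2, -0.055 to 0.27 for RBPJ and -0.093 to 0.096 for HES4, and for MetaICM against 3 days from -0.056 to 0.20 for NOTCH3. The causes were not tested.

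Replicate numbers are shared between conditions, but no source says that they pair the libraries, and deviations of same-numbered libraries correlated at -0.113 to 0.178. With the replicate block, NOTCH1 was 0.0044 for MetaICM against control, and no call given here was lost. Differences in HEY2 and HEYL were not detectable at this depth.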
